A study of Mus musculus with 22 samples.

Results

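The step from day 9 to day 12 was examined in embryoid bodies that received only vehicle. Embryoid bodies are aggregates in which embryonic stem (ES) cells leave self-renewal and form a mixture of cells of the germ layers. The cells are of J1, an established mouse ES line, for which the labels name no transgene or deletion. All 4 libraries come from cultures with 0.1% dimethyl sulfoxide (DMSO), 2 of day 9 and 2 of day 12, and they were taken by their titles from the 22 libraries of the series. The day is the number in the title. The study asked how tetrabromobisphenol A (TBBPA), a brominated flame retardant, alters this course, and DMSO is its solvent control. Other libraries used here are 2 of untreated ES cells, 2 with DMSO at each of days 4, 18 and 28, and the cultures with TBBPA, 1 library for each of 10 nM and 100 nM on each day. The labels do not say whether the libraries of a day came from separate cultures. The spread behind each p-value is that between libraries of a group, pooled over the groups of the fit. For the DMSO libraries of a day it could be technical alone.

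In an embryoid body, as in the early embryo, cells pass from pluripotency through states like those of the primitive streak and the neural plate. Neural progenitors then leave the cell cycle under proneural transcription factors, while mesoderm gives heart muscle, blood, vessels and connective tissue, and extraembryonic endoderm makes an outer epithelium that secretes serum proteins. Because RNA was taken from whole cultures, more cells of a type and more RNA per cell cannot be told apart in any result below.

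Total expected counts of the 4 libraries lay between 18741098 and 18819287, and 17332 to 17489 genes were listed in each. Levels are in CPM, the counts per 1000000 counts of the scaled library size, given for the first and then the second library of a day. Log2 changes are day 12 over day 9 ± SE. A gene rose or fell where its adjusted p was under 0.05 in edgeR's quasi-likelihood test. For genes with levels below that changed in this step, both day 12 libraries lay on the same side of both day 9 libraries. The libraries of these days differed little: the chi-square per gene was 1.61 within day 9 and 2.06 within day 12. Sampling alone gives about 1, and between the days it was 26.8 to 27.9. The other pairs of the same fit had 21.2 (ES cells), 3.25 (day 4), 2.27 (day 18) and 1.69 (day 28), and their spread also enters the p-values.

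Of 16203 genes tested, 5361 changed (33.1%), of which 2828 rose (17.5% of those tested) and 2533 fell (15.6%). The rises were larger than the falls. The median log2 change was 0.66 among the genes that rose and -0.35 among those that fell, and 870 rose more than 2-fold against 123 that fell more than 2-fold. Beyond 8-fold there were 93 rises and 4 falls. The split between rises and falls moved with the scaling: on library size alone, 3409 rose and 1786 fell. With 1 library left out the count of changed genes dropped by more than 1.5 times in each case, to 3305 and 3236 without the first and second day 9 library, and to 3299 and 3426 without the first and second day 12 library. In 11760 genes (72.6%) the libraries did not overlap between the days (36.4% with day 12 higher and 36.2% with day 12 lower), so separation of the 4 values alone is common in these data. Counts for a gene list are over its members that passed the filter on low counts. The number after "with 1 library left out" is the range of the same count over the 4 ways of leaving 1 out. Fewer of all genes rose and fewer fell in each of those fits, so these ranges have a lower background than 17.5% and 15.6%.

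Of 20 marker genes for the cell types an embryoid body can hold, 14 rose and 4 fell. The rises included markers of neurons, radial glia, heart muscle, primitive blood and fibroblasts, and the falls were those of Pou5f1, T, Krt8 and Mki67. Pou5f1, the core pluripotency factor also called Oct4, had 231 and 242 CPM at day 9 and 191 and 183 CPM at day 12, a log2 change of -0.34 ± 0.069 (adjusted p = 0.00217). T, the primitive streak factor brachyury, had 23.3 and 22.02 CPM at day 9 and 8.28 and 8.06 CPM at day 12, a log2 change of -1.47 ± 0.15. Thus transcripts of the earlier states were lower at day 12 but still present. Afp, the alpha-fetoprotein of yolk sac endoderm, rose from 284 and 295 to 353 and 366 CPM. Pecam1, an adhesion protein of endothelium that was higher in the ES libraries (198 and 178 CPM), rose from 30.1 and 32.9 to 37.5 and 37.5 CPM. These were the smallest rises among the markers, at log2 changes of 0.31 ± 0.099 and 0.25 ± 0.079. The rise of Afp did not hold with any 1 library left out (edgeR adjusted p 0.111 to 0.187). That of Pecam1 did not hold without the first day 9 library (adjusted p = 0.21) or without the first or second day 12 library (0.106 and 0.1). Sox17, a definitive endoderm and endothelial factor, had 31.3 and 30.3 CPM at day 9 and 35.6 and 29.2 CPM at day 12, values that overlap between the days. Ttr, a yolk sac carrier protein, had 141 and 152 CPM at day 9 and 129 and 129 CPM at day 12 and did not pass either.

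**Figure D1:**
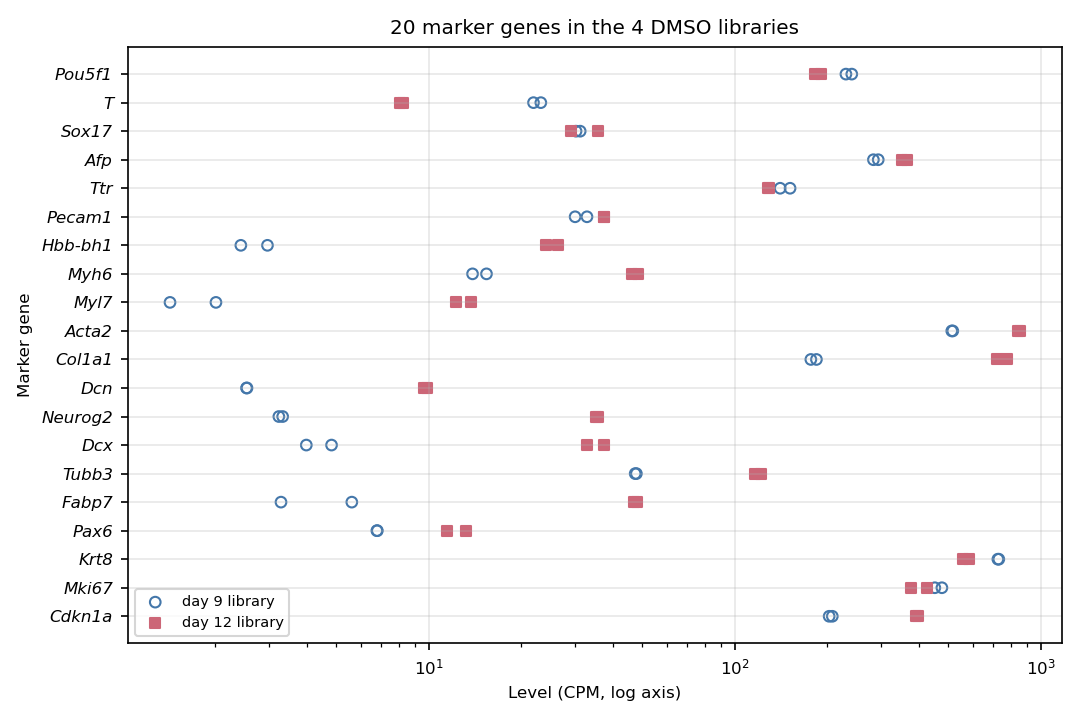
Level of 20 marker genes in the 4 DMSO libraries, with CPM on a log axis and a row for each gene. Open circles are the day 9 libraries and filled squares the day 12 libraries. The day 12 squares lie to the right of the day 9 circles for the 14 markers that rose and overlap them for Sox17.

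Genes that set neurons apart from their progenitors rose together. Of the 22 tested (24 listed) proneural factors and early neuronal regulators, 18 rose, with a median log2 change of 1.80 over the tested members, against 0 over all genes, and a lowest change of -0.05 (17 to 18 with 1 library left out). Neurog2, the basic helix-loop-helix factor that commits progenitors to a neuronal fate, had 3.24 and 3.33 CPM at day 9 and 35.8 and 35.2 CPM at day 12, a 10.8-fold rise (log2 change 3.43 ± 0.13, adjusted p = 1.63e-09). Nhlh2, a relative expressed as neurons are born, went from 2.71 and 2.38 to 21.1 and 22.1 CPM. Both genes were low in the day 9 libraries and several-fold higher in both day 12 libraries. Nhlh1, the close relative of Nhlh2, went from 5.47 and 5.51 to 22.04 and 23.6 CPM. Myt1, a zinc finger factor of nascent neurons, went from 2.28 and 1.96 to 18.03 and 17.1 CPM. Ebf3, a factor of migrating neurons, went from 7.12 and 8.21 to 27.7 and 28.4 CPM. In all 5 genes the gap between the days was far wider than that within a day.

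The machinery of neurites and axons went in the same direction. Of the 26 tested microtubule and growth cone genes 22 rose, with a median log2 change of 0.84 (19 to 20 with 1 library left out). Dcx, the doublecortin of migrating young neurons, had 3.98 and 4.82 CPM at day 9 and 32.96 and 37.3 CPM at day 12, a log2 change of 2.995 ± 0.11. Tubb3, the neuronal beta tubulin, rose from 47.8 and 47.3 to 116 and 122 CPM. Both were higher in each day 12 library by more than the spread within a day. Map2, which stabilises dendritic microtubules, rose from 20.03 and 18.5 to 81.9 and 89.3 CPM. Stmn4, a neuronal stathmin, rose from 2.28 and 2.17 to 12.7 and 12.1 CPM. Among motors that carry cargo along axons, Kif5a rose from 11.4 and 10.2 to 21.7 and 23.6 CPM and Kif1a from 54.5 and 53.6 to 93.8 and 95.1 CPM.

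RNA-binding proteins that act in neuronal splicing and RNA handling changed with them: 11 of 15 tested rose, with a median log2 change of 1.62 (9 with 1 library left out). Nova2 went from 8.87 and 9.16 to 35.4 and 33.3 CPM. Elavl3, a neuronal Hu protein, went from 9.88 and 8.79 to 35.6 and 37.1 CPM. Srrm4, which switches on neuronal microexons, went from 4.73 and 5.88 to 16.9 and 15.7 CPM. The member that fell was Ptbp2, the polypyrimidine tract binding protein of early neural cells. It had 107 and 103 CPM at day 9 and 84.5 and 86.1 CPM at day 12, a log2 change of -0.30 ± 0.074, and its edgeR adjusted p was 0.0631 without the first day 9 library and 0.058 without the first day 12 library.

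Synaptic genes rose in 19 of 28 tested cases, with a median log2 change of 0.97 (16 to 18 with 1 library left out). Chgb, a granin of secretory granules, rose from 5.74 and 6.51 to 39.5 and 41.4 CPM. Syp, the synaptic vesicle protein synaptophysin, rose from 5.95 and 6.51 to 15.1 and 17.1 CPM. Scg2, another granin, rose from 0.691 and 0.423 to 6.65 and 5.97 CPM. Of the 18 tested (20 listed) genes that define a transmitter 10 rose, or 6 to 7 with 1 library left out. They included genes of excitatory and inhibitory neurons and, for dopamine, Th. Ddc, another enzyme of dopamine synthesis, did not pass. The 1 member that fell was Slc18a1, a vesicular monoamine transporter, and its fall did not pass by DESeq2. The fall was also lost without the first day 9 library and without the first or second day 12 library. Slc17a6, the vesicular glutamate transporter of excitatory neurons, had 0.691 and 0.318 CPM at day 9 and 7.62 and 8.52 CPM at day 12, a log2 change of 3.98 ± 0.24. Slc32a1, the vesicular transporter of the inhibitory transmitter GABA, went from 0.266 and 0.318 to 1.78 and 2.35 CPM. Th, the rate-limiting enzyme of dopamine synthesis, went from 0.797 and 0.9 to 6.195 and 5.46 CPM. All 3 were near or below 1 CPM in both day 9 libraries. Among subunits of transmitter receptors, Gria2 of the AMPA type rose from 0.212 and 0.0529 to 3.301 and 3.06 CPM, while Grin1, the obligate subunit of the NMDA type, fell from 9.51 and 9.32 to 6.45 and 4.95 CPM.

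Genes by which growing axons find their way were also mostly higher at day 12. 23 of 34 tested guidance genes rose and 3 fell, with a median log2 change of 0.59 (20 to 22 rose with 1 library left out). The repellent ligand gene Slit1 went from 22.4 and 20.5 to 68.9 and 65.3 CPM. Dcc, the netrin receptor, went from 3.08 and 2.86 to 17.1 and 19.5 CPM. Cntn2, an axonal contactin, went from 6.43 and 8.37 to 25.4 and 25.4 CPM. Of the genes that fell, Efna5, an ephrin ligand, had 59.3 and 56.8 CPM at day 9 and 34.3 and 39.8 CPM at day 12. Sema3a, a semaphorin that repels axons, had 21.8 and 23.4 CPM at day 9 and 13.4 and 14.3 CPM at day 12.

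Among genes of radial glia, the neural stem cells of the later neural tube, 13 of 23 tested (24 listed) rose, with a median log2 change of 0.54, and the count was 13 with any 1 library left out. Fabp7, their fatty acid binding protein, had 3.29 and 5.61 CPM at day 9 and 47.02 and 48.03 CPM at day 12, a 10.7-fold rise (log2 change 3.41 ± 0.16, adjusted p = 1.57e-08). Nfia, which starts the switch to glia, rose from 4.14 and 3.33 to 13.1 and 15.1 CPM. Pax6, a factor of neural progenitors, rose from 6.8 and 6.78 to 11.5 and 13.2 CPM. The broader genes of the list moved less. Sox2, a factor of both pluripotent and neural progenitor cells, had 249.7 and 240.4 CPM at day 9 and 277 and 263 CPM at day 12 and did not pass (log2 change 0.14 ± 0.091). Vim, an intermediate filament of many cell types, had 606 and 628 CPM at day 9 and 794 and 759.7 CPM at day 12 and did not pass either. In the Notch pathway, which holds progenitors back from differentiation, 10 of 21 tested (22 listed) genes rose (9 with 1 library left out). The receptor gene Notch1 had 75.6 and 76.5 CPM at day 9 and 143 and 145 CPM at day 12, and its target Hes5 5.58 and 5.19 CPM at day 9 and 15.7 and 15.4 CPM at day 12. Dll3, a divergent ligand gene, rose from 10.6 and 11.2 to 27.5 and 29.4 CPM.

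Regional identity genes moved in both directions, 13 up and 9 down of 37 tested, with 10 to 12 up and 5 to 6 down when 1 library was left out. Zic1, which acts in dorsal neural tissue, rose from 12.96 and 14.7 to 46.3 and 45.6 CPM. Dbx1, a factor of interneuron progenitors of the hindbrain and spinal cord, rose from 9.94 and 9.27 to 28.2 and 24.4 CPM. Several that fell belong to the midbrain and its boundary with the hindbrain. En1, a factor of that boundary, fell from 15.9 and 15.7 to 9.65 and 7.04 CPM. Pax2 fell from 5.47 and 4.87 to 1.62 and 1.79 CPM, and Pax5 from 6.06 and 6.62 to 3.25 and 3.37 CPM. The call of Pax5 did not hold by DESeq2 (adjusted p = 0.0835). Otx2, of the forebrain, the midbrain and the epiblast, fell from 158 and 163 to 109 and 106 CPM. Related factors could part. Pou3f3, a POU factor of neural progenitors, rose from 6.8 and 7.25 to 26.96 and 29.6 CPM, while Pou3f1, of the epiblast and early neural plate, fell from 22.5 and 20.4 to 13.9 and 15.01 CPM. Of the LIM and POU homeobox factors together, 9 of 18 tested (20 listed) rose (7 to 8 with 1 library left out) and 2 fell. Foxa2, of floor plate and endoderm, had 47.4 and 47.4 CPM at day 9 and 52 and 51.1 CPM at day 12 and did not pass. The posterior Hox genes, which give position along the trunk, rose in 3 of 21 tested (24 listed) cases, near the background share (1 to 3 with 1 library left out).

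In the neural crest list, 10 of 21 tested genes rose (4 to 6 with 1 library left out). Ednrb, the endothelin receptor of crest and glia, had 7.07 and 7.62 CPM at day 9 and 39.7 and 39.5 CPM at day 12, a log2 change of 2.43 ± 0.12. Tfap2b, a crest factor, rose from 7.703 and 9.16 to 19.5 and 22.7 CPM. Both were higher in each day 12 library.

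**Figure D2:**
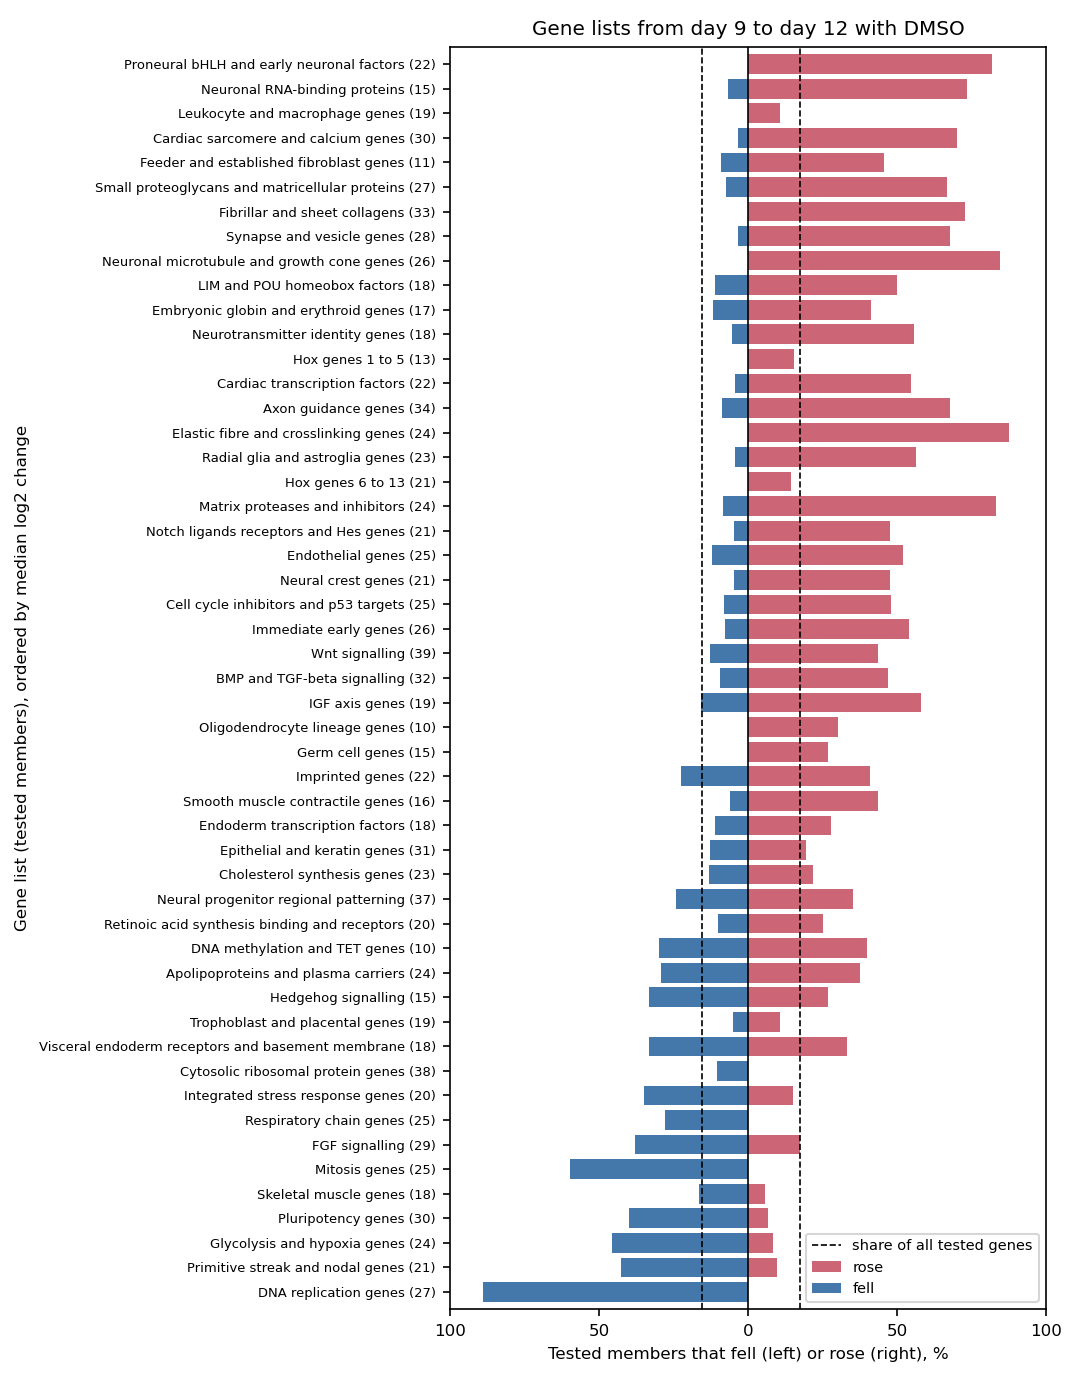
Share of the tested members of 51 gene lists that rose (red, right) or fell (blue, left) from day 9 to day 12 with DMSO, in percent. The number of tested members follows each list, lists are ordered by their median log2 change, and dashed lines mark the shares over all tested genes (17.5% rose and 15.6% fell). Neuronal, matrix and cardiac lists reach far beyond the right line, and DNA replication, primitive streak, glycolysis and pluripotency lists beyond the left.

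Genes of the connective tissue matrix rose at day 12. Of the 33 tested collagen genes 24 rose, with a median log2 change of 0.999 (23 to 24 with 1 library left out). Col3a1, a fibrillar collagen of soft tissue, had 66.8 and 66.4 CPM at day 9 and 623 and 602 CPM at day 12, a 9.195-fold rise (log2 change 3.20 ± 0.13, adjusted p = 3.41e-08). Col1a1, the main collagen of bone and skin, had 178 and 185 CPM at day 9 and 777 and 718 CPM at day 12, a log2 change of 2.04 ± 0.07. The day 12 libraries stood far above the day 9 libraries in both genes. Col5a2, which takes part in fibril assembly, rose from 11.6 and 11.9 to 50.2 and 53.8 CPM. Col8a1, a short-chain collagen of vessels and other tissues, rose from 11.9 and 10.6 to 37.2 and 38.2 CPM.

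The proteins that organise these fibrils rose as well. Of the 24 tested elastic fibre and crosslinking genes 21 rose, with a lowest log2 change of -0.03 (18 with any 1 library left out). Fbn1, the fibrillin of microfibrils, went from 36.3 and 36.3 to 91.05 and 94.8 CPM. Lox, the enzyme that crosslinks collagen and elastin, went from 2.23 and 1.48 to 7.01 and 7.61 CPM. Eln, elastin itself, went from 1.22 and 0.794 to 3.96 and 3.32 CPM. Among small proteoglycans and matricellular proteins 18 of 27 tested (33 listed) rose (16 to 18 with 1 library left out). Lum, a small proteoglycan of collagen fibrils, rose 8.94-fold, from 3.93 and 3.28 to 30.6 and 33.99 CPM. Dcn, the fibroblast marker decorin, rose from 2.55 and 2.54 to 9.65 and 9.85 CPM, and Postn, an adhesion protein of mesenchyme, from 142 and 138 to 356 and 358 CPM. Vcan, a large proteoglycan, had 227 and 230.1 CPM at day 9 and 203 and 214 CPM at day 12 and did not pass. Of the 11 tested laminin subunit genes, whose products build basement membranes, 10 rose (8 to 9 with 1 library left out). Lamb1 went from 455 and 458 to 689 and 694 CPM and Lama4 from 6.003 and 5.51 to 15.5 and 15.9 CPM. Matrix proteases and their inhibitors rose in 20 of 24 tested cases, or 12 to 15 with 1 library left out. Mmp2, a gelatinase of mesenchyme, rose from 77.7 and 82.2 to 128 and 128 CPM, while Mmp9, the related gelatinase, fell from 11 and 11.7 to 4.57 and 3.78 CPM. Ddr2, a receptor tyrosine kinase for fibrillar collagen and one of the 20 largest rises, went from 2.28 and 2.38 to 14.9 and 15.5 CPM.

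Heart muscle genes rose in 21 of 30 tested cases, with a median log2 change of 1.21 (17 to 19 with 1 library left out). Myl7, the atrial myosin light chain, had 2.02 and 1.43 CPM at day 9 and 13.7 and 12.3 CPM at day 12, a 7.52-fold rise (log2 change 2.91 ± 0.19, adjusted p = 1.24e-07). Myh6, the alpha myosin heavy chain, had 15.5 and 13.9 CPM at day 9 and 48.4 and 46.1 CPM at day 12. Tnni1, the troponin I of embryonic heart and slow muscle, had 3.98 and 4.24 CPM at day 9 and 17.4 and 17 CPM at day 12. The 3 genes of the contractile apparatus were each at least several-fold higher at day 12. Myom1, a protein of the sarcomere's M band, went from 4.09 and 4.24 to 14.9 and 14.7 CPM. Corin, the protease that activates the cardiac hormone ANP, went from 0.85 and 1.69 to 15.4 and 17.4 CPM. Nppa, the gene of that hormone, had 0.797 and 0.847 CPM at day 9 and 0.914 and 1.02 CPM at day 12 and did not pass. Tpm1, a tropomyosin of muscle and other cells, fell from 998 and 973 to 789 and 797 CPM. The summed level of the list, Tpm1 included, was 1554 and 1532 CPM at day 9 and 1585 and 1601 CPM at day 12.

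Of the 22 tested cardiac transcription factors 12 rose (8 to 10 with 1 library left out). Hand2, a factor of the developing heart, rose from 8.18 and 9.42 to 28.7 and 27.7 CPM. Tbx20, another, rose from 11.3 and 11.2 to 20.4 and 23.99 CPM. Myocd, the coactivator of serum response factor in heart and smooth muscle, rose from 2.34 and 2.33 to 5.08 and 5.92 CPM. Gata4 and Hand1 had log2 changes of 0.21 ± 0.12 and 0.18 ± 0.098 and did not pass. Skeletal muscle genes did not share the upward direction: 1 of 18 tested (20 listed) rose (5.56%), against 17.5% of all tested genes. A further 3 fell (16.7%), near the 15.6% of all tested genes, and 14 did not pass. Both counts were the same or lower with 1 library left out. Acta1, the skeletal alpha actin, fell from 53.5 and 48.7 to 34.9 and 35.8 CPM.

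In smooth muscle, 7 of 16 tested contractile genes rose (6 to 7 with 1 library left out). Acta2, the smooth muscle alpha actin, had 516 and 512 CPM at day 9 and 843 and 853 CPM at day 12, a log2 change of 0.72 ± 0.079. Actg2, the gamma actin of visceral smooth muscle, had 2.23 and 2.65 CPM at day 9 and 14.5 and 16.5 CPM at day 12. Myl9, a regulatory light chain, had 37.4 and 40.1 CPM at day 9 and 93.7 and 91.8 CPM at day 12. All 3 rose in both libraries, whereas Mylk, the kinase of these light chains, fell from 19.6 and 18.9 to 12.8 and 13.4 CPM.

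Actin and myosin genes of muscle are known targets of serum response factor, which binds the CArG box. The CArG box was searched on both strands in the 250 bases before each start in the RefSeq promoter table (build GRCm38.p6), which held windows for 12714 of the tested genes. It was present in 1.46% of those genes, in 5 of the 26 cardiac sarcomere genes with a window (19.2%), in 1 of 13 smooth muscle genes (7.69%) and in 3 of 20 immediate early genes (15%). The windows of 3 muscle genes that rose and held a match are shown because they place the box against the start, with the box in capitals, 5′ to 3′ on the gene's strand. That of Myl7 is at chr11:5898783-5899032, minus strand, that of Myom1 at chr17:71019307-71019556, plus strand and that of Myl9 at chr2:156775214-156775463, plus strand.
Myl7: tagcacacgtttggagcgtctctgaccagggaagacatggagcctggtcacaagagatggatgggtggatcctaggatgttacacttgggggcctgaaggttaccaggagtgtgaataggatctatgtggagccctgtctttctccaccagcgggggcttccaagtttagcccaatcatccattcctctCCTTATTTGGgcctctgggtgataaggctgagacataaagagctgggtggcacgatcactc
Myom1: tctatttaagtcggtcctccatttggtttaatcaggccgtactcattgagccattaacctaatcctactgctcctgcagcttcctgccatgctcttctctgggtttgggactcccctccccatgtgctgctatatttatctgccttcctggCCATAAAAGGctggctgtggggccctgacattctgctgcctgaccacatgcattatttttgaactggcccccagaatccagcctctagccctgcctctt
Myl9: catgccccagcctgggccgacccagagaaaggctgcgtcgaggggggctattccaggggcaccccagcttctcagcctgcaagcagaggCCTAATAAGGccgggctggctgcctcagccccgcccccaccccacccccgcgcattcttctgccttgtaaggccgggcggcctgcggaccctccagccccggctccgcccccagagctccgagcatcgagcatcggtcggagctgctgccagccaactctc
The box begins 61 bases before the start in Myl7, 99 before it in Myom1 and 161 before it in Myl9. A match is a description of the letters, not a measured binding site.

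Embryonic globins were low at day 9 and clearly higher at day 12. Hbb-bh1, the embryonic beta-like globin of yolk sac red cells, had 2.98 and 2.44 CPM at day 9 and 24.2 and 26.4 CPM at day 12, a 9.34-fold rise (log2 change 3.22 ± 0.20, adjusted p = 2.2e-07). Its partner Hba-x, the embryonic zeta globin, went from 1.97 and 2.44 to 17.7 and 18.7 CPM. Hbb-y, another embryonic beta-like globin, went from 0.212 and 0.159 to 2.64 and 2.76 CPM. All 3 kept a wide gap between the days. Hba-a1, an alpha globin with a near-identical copy, so that its count is uncertain, went from 0.797 and 1.11 to 9.598 and 7.91 CPM. Of the erythroid list 7 of 17 tested (22 listed) rose, or 4 to 5 with 1 library left out. The list also holds genes that other cells use. Car2, a carbonic anhydrase, fell from 63.7 and 58.1 to 29.2 and 28.4 CPM. Tfrc, the transferrin receptor of growing cells, fell from 201 and 199 to 154 and 164 CPM.

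Endothelial genes rose in 13 and fell in 3 of 25 tested cases, with 9 to 11 rises and 1 to 2 falls when 1 library was left out. Tek, an angiopoietin receptor, rose from 6.11 and 5.77 to 12.3 and 12.9 CPM. Tie1, its relative, rose from 5.15 and 4.92 to 13.8 and 12.2 CPM. Cdh5, the adhesion cadherin of vessel walls, rose from 20.8 and 23.5 to 34.3 and 32.97 CPM. These 3 are genes of the vessel wall itself. Emcn, a sialoprotein of venous and capillary endothelium, rose from 0.372 and 0.106 to 2.08 and 2.399 CPM. Flt4, a vascular endothelial growth factor receptor, fell from 10.4 and 10.8 to 7.57 and 6.69 CPM.

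Pluripotency genes fell in 12 of 30 tested cases and rose in 2 (10 to 12 fell with 1 library left out). The falls were uneven. Fgf5, a growth factor of the primed epiblast, had 17 and 18.3 CPM at day 9 and 2.74 and 3.06 CPM at day 12, a 6.06-fold fall (log2 change -2.60 ± 0.12, adjusted p = 7.22e-09). Lin28a, which blocks maturation of the let-7 microRNAs, had 598 and 602 CPM at day 9 and 237 and 242 CPM at day 12, a log2 change of -1.33 ± 0.17. Lin28b, its relative, had 122 and 123 CPM at day 9 and 65.7 and 68.2 CPM at day 12. Each day 12 library was well below the day 9 libraries in these genes. Sall4, a factor of pluripotent and germ cells, fell from 143 and 149.9 to 94.5 and 90.8 CPM. Tdgf1, a Nodal coreceptor, fell from 107 and 110.3 to 71.8 and 70.6 CPM. By contrast Nanog, a core pluripotency factor, had 149 and 156 CPM at day 9 and 137 and 143 CPM at day 12 and did not pass (log2 change -0.12 ± 0.064). The DNA methylation enzymes parted. Dnmt3b, the de novo enzyme of the epiblast, had 159 and 160.4 CPM at day 9 and 51.5 and 50.7 CPM at day 12, a log2 change of -1.65 ± 0.25. Dnmt3a, the de novo enzyme of later tissues, rose from 155 and 149 to 191 and 186 CPM. Uhrf1, which brings maintenance methylation to replicated DNA, fell from 283 and 277 to 205 and 206 CPM.

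Primitive streak and Nodal genes fell in 9 of 21 tested (24 listed) cases (7 to 8 with 1 library left out). Beside T, Eomes, a mesendoderm factor, fell from 25.2 and 21.8 to 12.5 and 11.6 CPM. Foxh1, the DNA-binding partner of Nodal signalling, fell from 30.6 and 30.6 to 14.9 and 13.4 CPM. Cer1, a secreted Nodal inhibitor, fell from 3.51 and 4.18 to 0.609 and 0.5104 CPM. The ligand gene Nodal itself had 21.2 and 22.8 CPM at day 9 and 17.8 and 19.9 CPM at day 12 and did not pass. Its feedback inhibitor Lefty2 had 35.2 and 36.7 CPM at day 9 and 48.6 and 48.2 CPM at day 12 and did not pass either, with a log2 change of 0.43 ± 0.24. Among the 20 largest falls were also Irs4, an insulin receptor substrate, from 23.4 and 24.1 to 4.82 and 4.75 CPM, and Pim2, a survival kinase, from 59.7 and 57.8 to 18.7 and 17.7 CPM.

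Genes of FGF signalling moved in both directions. Of 29 tested (31 listed) genes 11 fell and 5 rose, with 7 to 9 falls and 2 to 3 rises when 1 library was left out. Fgf8, a ligand of the streak and of brain boundaries, fell from 11.2 and 10.8 to 4.01 and 3.93 CPM. Spry2, a target that damps the pathway, fell from 56.6 and 56.96 to 41.03 and 42.1 CPM. Fgfr3, a receptor of neural progenitors and cartilage, rose from 24.9 and 27 to 50.2 and 51.8 CPM. Hedgehog pathway genes also moved both ways. Ptch1, the receptor, which the pathway itself induces, fell from 285 and 279 to 212 and 225 CPM. Shh, the ligand, had 32.7 and 30.02 CPM at day 9 and 35.5 and 34.2 CPM at day 12 and did not pass. Hhip, an inhibitor that the pathway also induces, rose from 7.38 and 6.72 to 12.5 and 14.9 CPM. In that list 5 of 15 tested fell and 4 rose, with 1 to 3 falls and 3 rises when 1 library was left out.

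Wnt genes rose in 17 and fell in 5 of 39 tested cases (12 to 14 rose with 1 library left out). Wnt9a, a ligand, rose from 15.5 and 15.6 to 34.4 and 31.8 CPM. Rspo2, which amplifies Wnt signals, rose from 5.37 and 5.4 to 16.9 and 17.7 CPM. The secreted inhibitors split. Dkk1 had 60.3 and 64.5 CPM at day 9 and 23.8 and 21.9 CPM at day 12, a log2 change of -1.45 ± 0.10. Dkk2 had 2.02 and 2.65 CPM at day 9 and 10.2 and 10.2 CPM at day 12. Axin2, a common target of the pathway, had 52.2 and 52.04 CPM at day 9 and 48.1 and 47.2 CPM at day 12 and did not pass. Of BMP and TGF-beta genes 15 of 32 tested (33 listed) rose and 3 fell (9 to 12 rose with 1 library left out). Tgfb3, a ligand, rose from 8.77 and 8.42 to 19.2 and 20.5 CPM. Enzymes that clear retinoic acid went in opposite directions, Cyp26a1 from 54.3 and 54.5 to 23.1 and 21.7 CPM and Cyp26b1 from 6.8 and 6.72 to 11.7 and 10.5 CPM. In the insulin-like growth factor axis 11 of 19 tested (20 listed) rose (8 to 9 with 1 library left out). Igfbp7, a binding protein of vessels and mesenchyme, had 4.78 and 5.51 CPM at day 9 and 28.5 and 27.3 CPM at day 12. Igf2r, which clears a fetal growth factor of this axis, rose from 191 and 179.5 to 304 and 305 CPM.

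The extraembryonic endoderm lists divided within themselves. In the list of visceral endoderm receptors and basement membrane 6 rose and 6 fell of 18 tested, and both counts were the same with any 1 library left out. Matrix genes that other cells of the culture also make were among those that rose: Lama1 went from 298 and 285 to 424 and 423 CPM and Sparc from 1044 and 1066 to 1577 and 1601 CPM. The gene of an endocytic receptor of this epithelium and that of its partner fell, while Dab2 and Cldn6 of the same list did not pass. Cubn, the receptor cubilin, had 254 and 259 CPM at day 9 and 144 and 146 CPM at day 12, a log2 change of -0.82 ± 0.069. Amn, its partner, had 41.4 and 44.5 CPM at day 9 and 28.7 and 26.2 CPM at day 12. Trh, a releasing hormone precursor in the same list, fell 3.58-fold, from 158 and 156 to 42.5 and 45.1 CPM. Serum protein genes parted too. Apoc2, an apolipoprotein, fell from 54.2 and 54.3 to 26.7 and 28.4 CPM, and Apom, another, from 58.6 and 61.7 to 37.6 and 38.7 CPM. Fgb, a fibrinogen chain, rose from 29.5 and 29.2 to 57.3 and 58.3 CPM. In this list 9 of 24 tested (28 listed) rose and 7 fell, or 4 to 6 and 6 to 7 with 1 library left out. Gata6, a primitive endoderm and heart factor, rose from 21.8 and 20.5 to 34.1 and 33.4 CPM. Krt8, the keratin of simple epithelia, fell from 730.1 and 725 to 582 and 558 CPM, a call that did not hold with any 1 library left out (edgeR adjusted p 0.0527 to 0.0923).

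Nearly all genes of DNA replication fell: 24 of 27 tested did so, with a median log2 change of -0.41 and a highest of 0.14 (20 to 21 with 1 library left out). Pcna, the sliding clamp of the polymerases, had 316 and 329 CPM at day 9 and 222 and 225 CPM at day 12, a log2 change of -0.53 ± 0.053 (adjusted p = 6e-06). Mcm5, a subunit of the replicative helicase, had 283 and 289.8 CPM at day 9 and 198 and 198 CPM at day 12. Chaf1b, of the chromatin assembly factor, had 83.9 and 82.1 CPM at day 9 and 53.7 and 50.6 CPM at day 12. These falls were under 2-fold but well beyond the spread within a day. Of the 25 tested mitosis genes 15 fell, with a median log2 change of -0.20. This count was 7 to 8 with 1 library left out and 8 on library size alone. Ccnb1, the mitotic cyclin, had 283 and 286 CPM at day 9 and 235 and 245 CPM at day 12. Birc5, or survivin, had 114 and 108 CPM at day 9 and 73.9 and 77.02 CPM at day 12. Mki67, the Ki-67 antigen of cycling cells, had 451 and 476 CPM at day 9 and 377 and 424 CPM at day 12, a log2 change of -0.21 ± 0.059. The fall of Mki67 did not pass without the second day 9 library (edgeR adjusted p = 0.137), without the first day 12 library (0.186) or on library size alone (0.0668). Top2a, which untangles chromosomes, had a log2 change of -0.07 ± 0.064 and did not pass.

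Several inhibitors of the cell cycle rose in the same interval. In a list that also holds p53 targets 12 of 25 tested rose, 2 fell and 11 did not pass. Both counts of changed genes were lower with 1 library left out. The falls were those of Trp53, which encodes p53, and Bax, a p53 target. Neither fall passed without the first or second day 9 library or without the second day 12 library. Cdkn1b, which encodes p27, was among the 11 that did not pass in the main fit. Cdkn1a, which encodes p21, had 209 and 204 CPM at day 9 and 392 and 398 CPM at day 12, a log2 change of 0.94 ± 0.055. Cdkn1c, which encodes p57, had 87.9 and 85.9 CPM at day 9 and 147 and 133 CPM at day 12. Btg2, an antiproliferative gene, had 101 and 101 CPM at day 9 and 187 and 178 CPM at day 12. Immediate early genes, which stimulated cells switch on within minutes, rose in 14 of 26 tested (27 listed) cases (11 to 13 with 1 library left out). Egr1 had 27.6 and 25.8 CPM at day 9 and 84.04 and 82.99 CPM at day 12, a log2 change of 1.65 ± 0.07. Fos went from 10.2 and 10.8 to 24.1 and 24.3 CPM and Jun from 53.9 and 51.1 to 88.8 and 84.9 CPM. Myc, a growth factor response gene that also serves pluripotent cells, fell from 40.96 and 41.9 to 16.2 and 15.5 CPM.

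Promoters of cell cycle genes are known for a CCAAT box, bound by the factor NF-Y, and for a CHR element, of which TTTGAA is a form. Both words were searched on both strands in the 250 bases before each start. CCAAT was present in 40.3% of the tested genes with a window and in 17 of the 19 mitosis genes with a window (89.5%). TTTGAA was present in 13.2% of the tested genes and in 7 of the 19 (36.8%). Both together were present in 5.12% and in the same 7. Among the 21 DNA replication genes with a window, CCAAT was present in 13 (61.9%). Windows of 3 mitotic genes that fell are shown because they hold CCAAT near the start, with TTTGAA as well in Kif11 and Mki67, and with each match in capitals (ATTGG and TTCAAA are the same words on the other strand). That of Ccnb1 is at chr13:100786487-100786736, minus strand, that of Kif11, the spindle motor, at chr19:37376132-37376381, plus strand and that of Mki67 at chr7:135716380-135716629, minus strand.
Ccnb1: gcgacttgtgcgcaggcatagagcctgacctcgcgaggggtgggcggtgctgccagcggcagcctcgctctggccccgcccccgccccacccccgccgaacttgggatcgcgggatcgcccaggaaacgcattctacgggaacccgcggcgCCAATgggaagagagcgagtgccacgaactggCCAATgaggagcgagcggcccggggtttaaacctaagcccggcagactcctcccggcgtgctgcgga
Kif11: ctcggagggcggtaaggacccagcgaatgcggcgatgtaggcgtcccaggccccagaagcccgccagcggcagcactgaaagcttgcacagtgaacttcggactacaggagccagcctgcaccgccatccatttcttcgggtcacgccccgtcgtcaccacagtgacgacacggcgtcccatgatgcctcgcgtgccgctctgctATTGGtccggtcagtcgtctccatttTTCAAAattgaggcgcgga
Mki67: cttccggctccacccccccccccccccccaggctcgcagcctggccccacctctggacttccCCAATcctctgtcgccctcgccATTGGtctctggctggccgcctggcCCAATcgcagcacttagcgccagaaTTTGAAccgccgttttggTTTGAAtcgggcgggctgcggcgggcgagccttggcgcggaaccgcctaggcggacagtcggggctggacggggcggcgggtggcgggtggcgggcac
In Ccnb1 a CCAAT match begins 99 and another 67 bases before the start. In Kif11 a CCAAT match begins 45 and a TTTGAA match 19 bases before it. In Mki67 the 5 matches begin 188, 166, 141, 116 and 98 bases before it. No matches overlap. Kif11 fell from 152 and 145 to 121 and 130.5 CPM, though not without the first day 9 library (edgeR adjusted p = 0.0938) or the first day 12 library (0.115).

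Genes of glycolysis and hypoxia fell in 11 of 24 tested cases (45.8%) and rose in 2 (8.33%), Adm and Pfkfb3. Of all tested genes 15.6% fell and 17.5% rose. Neither rise passed with any 1 library left out, and fewer of the list fell in those fits. The glycolytic enzyme genes Aldoa, Pgk1 and Tpi1 did not pass. Pkm, pyruvate kinase, had 3753 and 3751 CPM at day 9 and 2570 and 2553 CPM at day 12, a log2 change of -0.55 ± 0.053. Ldha, which makes lactate, fell from 1684 and 1632 to 1108 and 1099 CPM. Slc2a1, a glucose transporter, fell from 1130 and 1155 to 796 and 782 CPM. Together the list's summed level was 24260 and 24770 CPM at day 9 and 18780 and 18630 CPM at day 12. Respiratory chain genes fell in 7 of 25 tested cases, or 2 to 3 with 1 library left out. Ribosomal protein genes fell in 4 of 38 tested cases, under the background share, with a median log2 change of -0.10 (0 to 2 falls with 1 library left out). In the stress response governed by Atf4, 7 of 20 tested fell and 3 rose, with 4 to 5 falls and 2 rises when 1 library was left out. Chac1, a glutathione-degrading enzyme of this list, fell from 19.02 and 19.2 to 9.45 and 7.96 CPM.

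Lists for other cells that the cultures could hold were counted in the same way. Of all tested genes 17.5% rose and 15.6% fell. In the leukocyte and macrophage list and in the trophoblast list 10.5% of tested members rose, under that background. The share that rose was 26.7% for germ cell, 30% for oligodendrocyte and 45.5% for feeder fibroblast genes. Of 19 tested (20 listed) leukocyte and macrophage genes 2 rose (2 to 3 with 1 library left out), and the summed level of the list was 57.4 and 61.8 CPM at day 9 and 69.7 and 69.8 CPM at day 12. Csf1r, the macrophage growth factor receptor, rose from 6.75 and 8.79 to 14.7 and 14.1 CPM. In the germ cell list 4 of 15 tested rose, or 2 to 3 with 1 library left out, and Dazl, a germ cell RNA-binding protein, went from 11.5 and 10.8 to 25.3 and 26.3 CPM. Among oligodendrocyte genes 3 of 10 tested (12 listed) rose (2 to 3 with 1 library left out). Trophoblast genes rose in 2 and fell in 1 of 19 tested (20 listed) cases. The rises were 0 to 1 with 1 library left out, and the fall was that of Plac1, from 4.83 and 4.66 to 1.93 and 1.68 CPM. Of 11 tested genes of feeder and other established fibroblasts 5 rose (5 with any 1 library left out), and their summed level was 95.95 and 96.8 CPM at day 9 and 147 and 150 CPM at day 12. Fap was at 0 in both day 9 libraries and at 0.812 and 0.663 CPM at day 12. Lum and Pdgfrb, the receptor of a mesenchymal growth factor, are in this list too, and Pdgfrb rose from 18.7 and 18.3 to 41.8 and 39.8 CPM. The part of such cells in the matrix rises was not tested.

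The step was then set against its neighbours in the same fit of the control libraries. Its change differed from that of day 4 to day 9 in 6135 genes (37.9% of those tested), and from that of day 12 to day 18 in 1636 genes (10.1%). The first count was 3902 and 3940 without the first and second day 9 library. The second dropped to 973 and 928 without the first and second day 9 library, to 520 and 548 without the first and second day 12 library, and to 984 and 1004 without the first and second day 18 library. Neighbouring steps share libraries, so the courses are given as levels beside these tests. By list, 15 of the 22 proneural genes and 17 of the 25 endothelial genes had a later step that differed from this one. For ribosomal protein genes 29 of 38 differed from the earlier step.

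Neurog2 was at 0 and 0.0593 CPM at day 4, and after day 12 at 43.05 and 45.4 CPM at day 18 and 5.81 and 6.51 CPM at day 28. Its later step minus this one was -3.11 ± 0.19 (adjusted p = 9.79e-07). Dcx was at 122 and 122 CPM at day 18 and at 8.81 and 7.97 CPM at day 28. Both neuronal genes thus had their highest levels among the DMSO days at day 18. Notch1 was level between day 4, at 74.3 and 76.4 CPM, and day 9, and stayed near its day 12 level at day 18, with 157 and 151 CPM. The difference of this step from the earlier one was 0.91 ± 0.10 (adjusted p = 9.7e-06).

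The embryonic globins Hbb-bh1 and Hba-x and the muscle genes Myl7 and Acta2 had their highest levels among the DMSO days at day 12, whereas Myh6 was higher at day 18, with 69.4 and 64.6 CPM. Hbb-bh1 was at 0.0596 and 0 CPM at day 4 and at 0.0503 and 0.248 CPM at day 18, and it was listed in neither day 28 library. The later step minus this one was -10.56 ± 0.42 (adjusted p = 2.76e-08), a fitted value that rests on a few reads at day 18. Hba-x had a like course, with 0.101 and 0.0993 CPM at day 18. Myl7 was at 1.49 and 1.25 CPM at day 4, near its day 9 level, and at 10.96 and 8.79 CPM at day 18. Its change in this step exceeded that of the earlier step by 2.58 ± 0.41 (adjusted p = 0.000201). Acta2 had 422 and 401 CPM at day 18, below its day 12 level, and Hand2 14.1 and 15 CPM, likewise below it.

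The collagens of this paragraph were higher still at the later days. Col1a1 had 5.903 and 5.82 CPM at day 4, 1833 and 1967 CPM at day 18 and 5693 and 5932 CPM at day 28. Col3a1 had 1985 and 2128 CPM at day 18 and 4304 and 4479 CPM at day 28. Dcn had 88.6 and 87.7 CPM at day 18, and its later step exceeded this one by 1.24 ± 0.16 (adjusted p = 0.000221).

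Falling genes differed in when they fell. Lin28a was at 623 and 653 CPM at day 4, near its day 9 level, and this step differed from the earlier one by -1.24 ± 0.28 (adjusted p = 0.00831). Fgf5 was at 146 and 152 CPM at day 4, so most of its fall preceded day 9. T was at 0.894 and 1.36 CPM at day 4 and thus highest at day 9 among the DMSO days up to day 12. Dkk1, at 2.33 and 1.84 CPM at day 4, had the same order. Cubn was at 121 and 135 CPM at day 4, also below its day 9 level. Pcna had a difference between this step and the earlier one of 0.003 ± 0.091, which did not pass. The later step of Cdkn1a minus this one was -0.86 ± 0.093 (adjusted p = 6.2e-05).

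**Figure D3:**
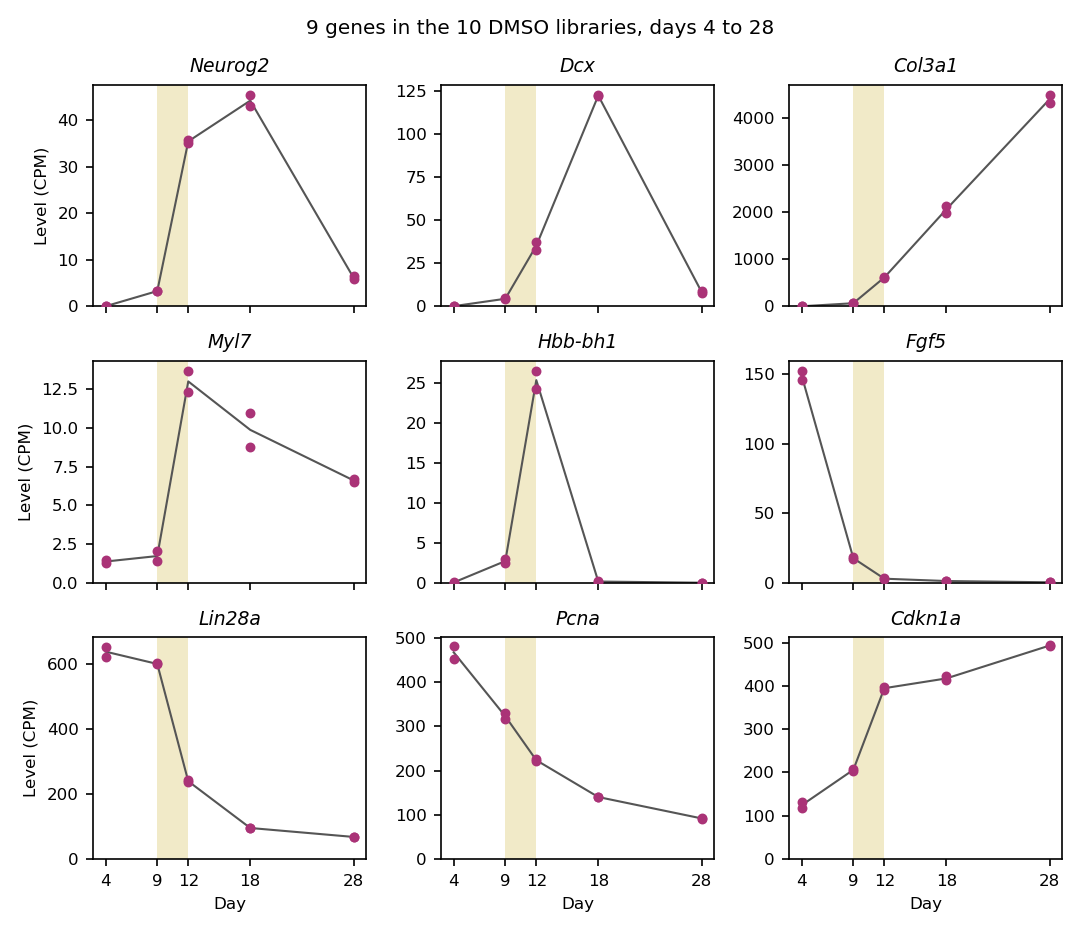
Level in CPM of 9 genes in the 10 DMSO libraries against the day, on linear axes that start at 0. Points are single libraries, lines join the means of each day's 2 libraries, and the band marks days 9 to 12. Hbb-bh1 and Myl7 are highest at day 12, Neurog2 and Dcx at day 18 and Col3a1 at day 28, and Lin28a turns down within the band.

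The TBBPA cultures gave the same interval in 4 libraries that the DMSO comparison does not use. With both doses of a day taken as a pair, 6042 of 16383 genes changed from day 9 to day 12 (36.9%), 3228 upward (19.7%) and 2814 downward (17.2%), or 3790 and 2173 on library size alone. Of the 5361 genes that changed with DMSO, 5051 had the same sign there and 3702 also passed in that direction. Among the 20 markers 18 had the same sign, the exceptions being Afp and Pecam1, and 12 rose and 4 fell. Levels are given with the 10 nM library first on each day. Neurog2 had 7.36 and 5.13 CPM at day 9 and 75.8 and 73.7 CPM at day 12, a log2 change of 3.58 ± 0.12. Myl7 had 1.99 and 1.36 CPM at day 9 and 12.9 and 14.9 CPM at day 12, a log2 change of 3.05 ± 0.22. Hbb-bh1 had 2.85 and 0.273 CPM at day 9 and 16.04 and 9.84 CPM at day 12. The 100 nM library of day 9 had the lowest level of this globin among the 4. Col1a1 had 194 and 161 CPM at day 9 and 598 and 457 CPM at day 12. T had 28.9 and 22.1 CPM at day 9 and 13.6 and 14.3 CPM at day 12. Cdkn1a had 228 and 219 CPM at day 9 and 414 and 418 CPM at day 12. These genes moved in the direction they had with DMSO. Pecam1 had 23.7 and 25.7 CPM at day 9 and 21.8 and 21.5 CPM at day 12, a log2 change of -0.19 ± 0.11. Afp had 261 and 158 CPM at day 9 and 190.2 and 144 CPM at day 12, a log2 change of -0.33 ± 0.39, and the doses differed more than the days.

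**Figure D4:**
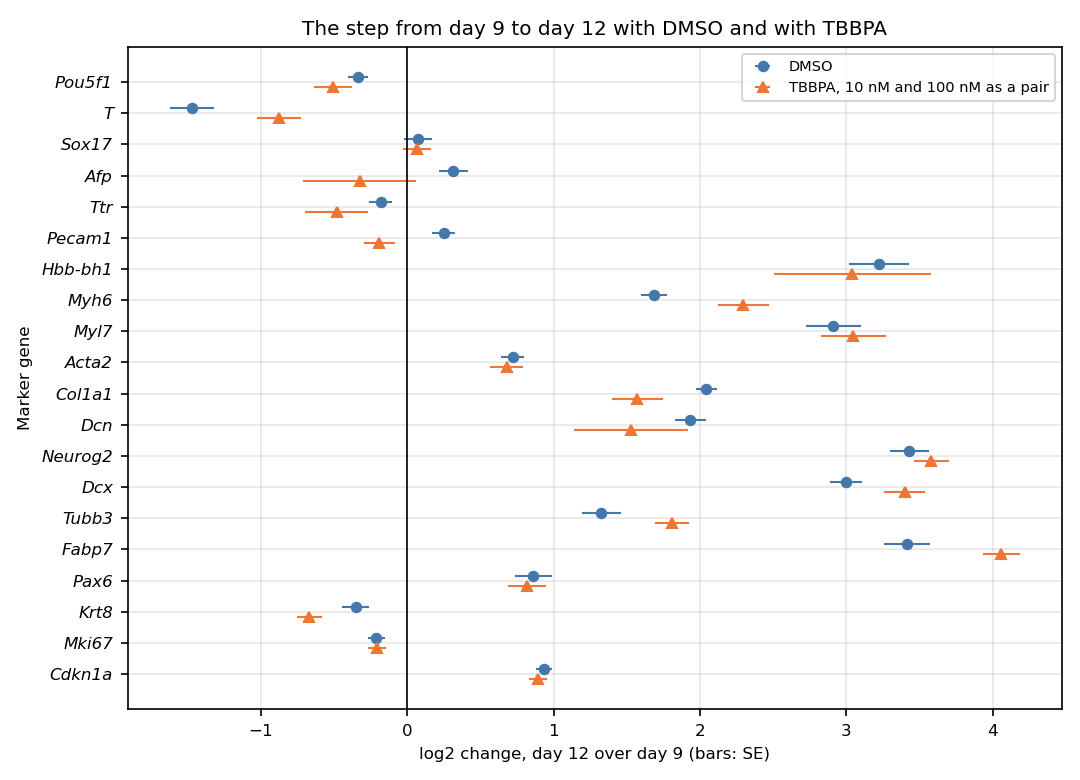
Log2 change from day 9 to day 12 of the 20 markers with DMSO (circles) and with TBBPA (triangles), with bars for the SE. The DMSO values come from the fit of the 12 control libraries and the TBBPA values from that of all 22, and the symbols lie on the same side of 0 for 18 markers.

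The difference between the TBBPA step and the DMSO step passed in 201 genes (1.23%), 97 above 0 (0.592%) and 104 below (0.635%), or 78 and 192 with DESeq2's size factors. In the same edgeR test 0 of the 20 markers differed, with 6 at an unadjusted p under 0.05, 0 by DESeq2 and 1 at most under the other settings. A miss of the threshold does not show that the markers changed alike. Per list, the TBBPA cultures had 19 rises among the 22 proneural genes and 22 among the 30 cardiac sarcomere genes. Of the 27 replication genes 26 fell. Collagens rose in 20 of 33 cases, with a median log2 change of 0.77, and elastic fibre genes in 14 of 24. Counts of several other lists and families were unlike those with DMSO, though the DMSO counts come from the fit of the 12 control libraries. Matrix proteases and inhibitors rose in 12 of 24 cases against 20 with DMSO, and cholesterol synthesis genes in 15 of 23 against 5. Proteasome subunit genes fell in 22 of 40 cases against 34. Lists of extraembryonic endoderm differed too. In the list of visceral endoderm receptors and basement membrane 10 of 18 fell with TBBPA, with a median log2 change of -0.43, against 6 rises and 6 falls with DMSO, and for 4 of them the difference between the steps passed. Of the 24 apolipoprotein and plasma carrier genes 1 rose and 6 fell with TBBPA, against 9 and 7 with DMSO, and the difference passed for 1.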

How the data were processed

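RNA of J1 embryoid bodies and ES cells was sequenced in 22 libraries. For each library the authors deposited expected counts and FPKM values per gene. Per the submitters' processing notes HISAT, Bowtie2 and the build GRCm38.p5 were used. Versions, the counting tool and whether strand was used are not given in the sources used here. Genes absent from a file were set to 0.

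Deposited expected counts, which are estimated and need not be whole, were rounded, filtered with filterByExpr (minimum count 10, minimum total 15) and scaled with TMM. They were tested with edgeR 4.0.16 (quasi-likelihood, robust, R 4.3.3) with Benjamini-Hochberg adjustment at 0.05 over all genes tested, so every adjusted p is edgeR's unless another tool is named. The fit for DMSO held the 12 control libraries (ES cells and DMSO, 6 residual degrees of freedom). The TBBPA step and its difference from the DMSO step came from a fit of all 22 libraries in 11 groups with the doses of a day as 1 group.

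Alternatives were library-size and DESeq2 scaling, DESeq2 1.42.0, other filters, limma 3.58.1 on the authors' FPKM (log2 with a pseudocount of 1 or 0.1), other sample sets, a replicate block and leaving out each library. The members, 51 gene lists and 17 families were chosen with earlier results of these data known. Of 1217 list entries 1203 were in the tables. Named genes were the 20 markers, the 20 largest rises and 20 largest falls whose libraries did not overlap and whose mean log2 CPM was 2 or more, and for each list or family the 5 risers and 5 fallers of smallest p and the 3 members of highest FPKM that did not pass.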

Additional observations from a re-analysis of the deposited data

Results flagged for a closer look

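The change from day 9 to day 12 differed between the TBBPA cultures and the DMSO cultures in 201 genes, by a test of the difference itself. At an unadjusted p under 0.05 there were 2461 such genes. With 1 library left out the count was 197 and 74 without the 10 nM and the 100 nM library of day 9, and 61 and 43 without those of day 12. It was 31 and 29 without the first and second DMSO library of day 9, and 62 and 21 without those of day 12. Among neuronal microtubule and growth cone genes, a list chosen after its values were seen, 11 of 26 differed, against 1.23% of all genes tested. The median log2 change of this list was 1.46 with TBBPA and 0.84 with DMSO. Groups of 2 libraries allow no test for an outlying library.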

How the results depend on the processing

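The 5361 genes that changed from day 9 to day 12 with DMSO were 4204 to 5525 under other scalings, filters, tools and units and with all 22 libraries fitted, 7975 with the 10 DMSO libraries, and 8056 with the 4 compared libraries alone (7807 with a block). With 1 library left out they were 3236 to 3426. The count of genes whose step differed from that of day 4 to day 9 was 3902 to 5287, and from that of day 12 to day 18 was 520 to 1004, with 1 library left out. That of genes changed with TBBPA was 4090 to 5131. The genes whose step differed between TBBPA and DMSO were 423 by DESeq2 and 21 to 197 with 1 library left out. The cause of these moves was not tested. The numbers were not taken as pairs, since the labels do not say that a number marks a shared culture. Same-numbered libraries did not deviate together (correlation 0.0499 over 11882 genes). With a replicate block the first 3 counts were 5240, 6030 and 1512. The log2 change of Sox17 was -0.076 to 0.21 with 1 library left out, below 0 without the first day 12 library. The alternatives were run for 174 of the genes that the text names, of the 618 that the naming rule gives. Of these, 6 that passed lost their call in some way of leaving out 1 library: Afp, Kif11, Krt8, Mki67, Pecam1 and Ptbp2. Pax5 lost its call by DESeq2 and Mki67 on library size alone. No other sign turned under any alternative run for these genes. Outside the 174, only counts per list were made under the alternatives. By those counts the rises of Adm and Pfkfb3 did not pass with any 1 library left out. The falls of Trp53, Bax and Slc18a1 were lost in some of these fits. Other scalings moved the median change of all genes by at most 0.06. Depth limits genes with a few reads, such as the globins at days 4 and 18, whose fitted changes are imprecise.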

Other observations

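Gene families outside the lineage lists were counted in the same way. Of 40 tested proteasome subunit genes, which encode the complex that degrades tagged proteins, 34 fell (median log2 change -0.32; 27 to 28 with 1 library left out), against 15.6% of all tested genes. Psmc4, an ATPase of its cap, had 152 and 155 CPM at day 9 and 106 and 103 CPM at day 12 and Psmb7, a catalytic core subunit, 256 and 245 CPM at day 9 and 198 and 199 CPM at day 12. Among 77 mitochondrial ribosomal protein genes 34 fell, with a median log2 change of -0.22, but 16 to 19 with 1 library left out and 21 on library size alone. Mrpl12, of the large subunit, had 93.98 and 91.96 CPM at day 9 and 64.4 and 65.8 CPM at day 12.

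Protocadherins, adhesion proteins by which neurons recognise each other, rose in 27 of 62 tested cases (median log2 change 1; 15 to 20 with 1 library left out). Pcdh8 went from 20.4 and 16.9 to 40.7 and 37.5 CPM and Pcdh17 from 3.51 and 3.49 to 7.87 and 7.35 CPM. The clustered members share exons, so their counts are uncertain. Of 84 potassium channel genes 25 rose (29.8%) and 4 fell (4.76%), against 17.5% and 15.6% of all tested genes. Fewer of them rose with 1 library left out, as did fewer of all genes. Kcnc1, a channel of fast-spiking neurons, rose from 1.86 and 1.69 to 9.14 and 8.37 CPM. Of 37 kinesin genes 9 rose (24.3%) and 7 fell (18.9%), against 17.5% and 15.6% of all tested genes. Both kinesin counts were lower with 1 library left out, as were those over all genes. Kif15, a spindle motor, fell from 81.8 and 81 to 53.3 and 58.2 CPM, and Kif26b, an unconventional kinesin of developing tissue, rose from 7.44 and 7.52 to 17.6 and 17 CPM. Among imprinted genes 9 rose and 5 fell of 22 (8 to 9 and 3 to 4 with 1 library left out), with Dlk1, a Notch-like ligand, at 124 and 127 CPM at day 9 and 243 and 235 CPM at day 12 and Grb10, a growth inhibitor, at 99.1 and 101 CPM at day 9 and 72.1 and 71.9 CPM at day 12.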
